A study of Mus musculus with 4 samples.

Results

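Open chromatin around 4 mouse genes for enzymes that remove superoxide and hydrogen peroxide was examined: Sod1, Sod2, Sod3 and Cat. Every peak of the 4 deposited ATAC-seq peak lists whose midpoint lay inside 1 of these genes or within 100000 bp of it was taken, 764 of 1705856 peaks in all. The 4 genes were chosen by name and not by their measured values. ATAC-seq uses the Tn5 transposase to insert sequencing adapters into accessible DNA, so a peak marks DNA that was open in the cells.

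The cells were dermal fibroblasts of C57BL/6 mice, with 1 library per group. The knockout library came from cells labelled Sod2-/-, a conditional knockout, and its control from Sod2+/+ cells. The rotenone library came from Sod2+/+ cells treated with rotenone, which blocks complex I of the respiratory chain, at a labelled dose of 250 µM, and its vehicle library from Sod2+/+ cells given vehicle alone. All 4 samples are labelled 100 days, and the labels used here say neither what the days count, which Cre line or deleted part made the knockout, how many mice were used, nor how long rotenone was given. The comparisons ask whether chromatin at these genes differs when mitochondrial superoxide removal or complex I is disturbed, and vehicle against control shows how far 2 libraries of Sod2+/+ cells without rotenone lie apart.

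Superoxide dismutases turn superoxide into hydrogen peroxide and oxygen. The enzyme of Sod1 uses copper and zinc and works mainly in the cytosol, that of Sod2 uses manganese and works in the mitochondrial matrix, where the respiratory chain releases superoxide, and that of Sod3 is secreted and bound in the extracellular matrix. Catalase, encoded by Cat, breaks down hydrogen peroxide, mainly in peroxisomes. In skin, dermal fibroblasts make the matrix in which the secreted enzyme is held.

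The peak at the start of a gene lies over its promoter, so the promoters are shown first. RefSeq's promoter table (GRCm38.p6, the assembly behind mm10) gave a start for Sod1, Sod2 and Cat, and Sod3 had no entry. The 250 bases before each start are printed 5′ to 3′ in the direction of transcription. They lie at chr16:90220512-90220761 on the plus strand for Sod1, at chr17:13007589-13007838 on the plus strand for Sod2 and at chr2:103485154-103485403 on the minus strand for Cat. Capitals mark matches to the motifs named after them.
Sod1: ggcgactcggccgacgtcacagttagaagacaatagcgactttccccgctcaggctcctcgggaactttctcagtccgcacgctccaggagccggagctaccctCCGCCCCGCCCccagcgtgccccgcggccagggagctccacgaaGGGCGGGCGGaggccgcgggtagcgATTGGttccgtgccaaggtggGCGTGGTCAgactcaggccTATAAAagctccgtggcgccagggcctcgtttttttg
Sod2: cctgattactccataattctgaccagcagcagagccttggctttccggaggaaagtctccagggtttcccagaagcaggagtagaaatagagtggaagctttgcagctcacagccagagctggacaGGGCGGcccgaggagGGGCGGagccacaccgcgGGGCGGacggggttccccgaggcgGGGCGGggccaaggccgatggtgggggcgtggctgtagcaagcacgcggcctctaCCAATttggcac
Cat: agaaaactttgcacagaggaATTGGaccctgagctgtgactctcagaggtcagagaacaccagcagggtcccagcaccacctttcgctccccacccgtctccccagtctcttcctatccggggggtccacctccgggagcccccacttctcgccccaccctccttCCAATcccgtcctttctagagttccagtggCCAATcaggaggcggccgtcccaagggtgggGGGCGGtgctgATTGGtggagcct

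All 3 promoters were rich in G and C, at 66.4% in Sod1, 63.6% in Sod2 and 62.0% in Cat, against a median of 52.4% over 32851 mouse promoters of the same length. The GC box GGGCGG matched 4 times in Sod1, as 2 overlapping pairs, 4 times in Sod2 and 1 time in Cat, on either strand, and 32.7% of all promoters held it. The CCAAT box CCAAT matched 1 time in Sod1, 1 time in Sod2 and 4 times in Cat, against 33.8% of promoters with any match. Sod1 alone of the 3 held a TATA box TATAAA, which 12.4% of promoters held, and a match to the antioxidant response element TGACNNNGC, which 10.2% held. That element is the binding sequence of NRF2, a regulator of antioxidant genes, and its match in Sod1 lay 56 to 48 bases before the start, on the strand opposite to transcription. No match was found in these windows to the AP-1 motif TGANTCA, held by 6.75% of promoters, to the FOXO motif TGTTTAC, held by 3.17%, or to the longer motif of NRF1, a regulator of mitochondrial genes, held by 0.782%. A match is a run of letters and does not show that a factor was bound.

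The lists differed in length, with 585165 peaks in the knockout, 433013 in control, 347438 under rotenone and 340240 under vehicle, and read depth is unknown. Each peak carries the authors' own fold enrichment over local background and −log10 p, and its rank is its place in its own list by −log10 p, with rank 1 the strongest. The 30000 best ranked peaks of each library are called strong. Ranks show order within a list and not a change in openness, and in bulk cells a site open in fewer cells cannot be told apart from a site less open in each. With 1 library per group no difference has a replicate check and no p-value is given. Over the whole genome the median fold of strong peaks was 5.49 in the knockout and 6.78 in control, and 5.99 under rotenone and 7.13 under vehicle. Their median width was 293 bp in the knockout and 376 bp in control, and 277 bp under rotenone and 349 bp under vehicle. Of 12 fibroblast markers, 3 had a strong start peak in the knockout, 4 in control, 3 under rotenone and 4 under vehicle, while Col1a1, Col3a1, Dcn, Lum, Pdgfra, Thy1, Twist2 and Prrx1 had none in any library. Keratinocyte (0 of 6) and leukocyte (0 of 6) markers had no strong start peak in any library, 1 of 4 endothelial markers (Tek) had one in each, and of 4 melanocyte and Schwann cell markers 2 had one in the knockout, 1 in control, 2 under rotenone and 2 under vehicle. Over all protein-coding genes 37.2% to 38.1% had a strong start peak, so these marker counts alone do not mark the cells as fibroblasts. The part of other cell types in the values below was not tested.

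All 4 genes had a strong peak at their start, or at a gene end for Sod3, in all 4 libraries. Over 21887 protein-coding genes, 37.3% had a strong start peak in the knockout, 37.3% in control, 38.1% under rotenone and 37.2% under vehicle. The starts of Sod1, Sod2 and Cat and the lower end of Sod3 thus held an open site in every library, and the differences lay in rank, fold and width.

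Sod2, the gene knocked out, had the best start peak of the 4 by −log10 p in each library (chromosome 17, gene at 13007839-13018119, mm10). The Sod2 start peak had a fold of 6.67 in the knockout and 7.04 in control, and of 7.29 under rotenone and 7.54 under vehicle. By fold it was not first in any library, with Sod3 higher in the knockout (7.20) and Cat higher in control (7.37). Cat was also higher under rotenone (7.52), and both Sod3 (9.58) and Cat (9.47) were higher under vehicle. The Sod2 peak ranked 4797 in the knockout and 5579 in control, and 4202 under rotenone and 5941 under vehicle. Between 10.4% and 12.5% of protein-coding genes had a better ranked start peak. By −log10 p Sod2 thus kept nearly the same place among promoters in the 4 libraries. Ranked by fold, its peak stood at 8658 in the knockout and 13523 in control, and at 8623 under rotenone and 12925 under vehicle. The peak was 769 bp wide in the knockout and 941 bp in control, and 757 bp under rotenone and 858 bp under vehicle. It covered 200 of the 250 printed bases in the knockout and all 250 in control, and 215 under rotenone and all 250 under vehicle. All 4 GC boxes and the CCAAT box of Sod2 lie in the last 124 of these bases, inside the peak in each library. The start of Sod2 was thus still open in cells labelled Sod2-/-, and as the deleted part is not stated, this peak does not check the genotype.

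Sod1 lies on chromosome 16 at 90220762-90226333. Its start peak was the lowest ranked of the 4 genes in the knockout, control and vehicle. It had a fold of 4.35 in the knockout and 6.50 in control, and of 5.15 under rotenone and 6.17 under vehicle. Its rank was 26722 in the knockout and 18409 in control, and 22934 under rotenone and 23830 under vehicle. Under rotenone the fold was lower than under vehicle while the rank was slightly better. The peak covered all 250 printed bases in each library and was 640 bp wide in the knockout and 710 bp in control, and 625 bp under rotenone and 683 bp under vehicle.

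Cat lies on chromosome 2 at 103453904-103485153 on the minus strand. Its start peak had a fold of 5.03 in the knockout and 7.37 in control, and of 7.52 under rotenone and 9.47 under vehicle. It ranked 16216 in the knockout and 11646 in control, and 7999 under rotenone and 7617 under vehicle. The rotenone and vehicle libraries thus both stood above the knockout and control libraries here. The peak covered 225 of the printed bases in the knockout and 208 in control, and 133 under rotenone and 168 under vehicle, so the outermost CCAAT box, 230 bases before the start, lay outside the peak in each library.

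Sod3 (chromosome 5, 52363804-52369738) was searched at both gene ends, and the peak lay at the end with the lower coordinate. It was the most variable of the 4, with a fold of 7.20 in the knockout and 6.47 in control, and of 4.53 under rotenone and 9.58 under vehicle. It ranked 7556 in the knockout and 15414 in control, and 26309 under rotenone and 6103 under vehicle. The 2 comparisons differed in direction here, and control and vehicle, which share genotype and lack of rotenone, ranked 2.53 times apart. The caller split the site differently: the best peak was 267 bp wide in the knockout and 736 bp in control, and 738 bp under rotenone and 278 bp under vehicle. A second peak lay beside the narrow one in the knockout and vehicle, while 1 peak spanned the site under rotenone and in control. The values of the Sod3 peak moved with this splitting, whose part in them was not tested.

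**Figure D1:**
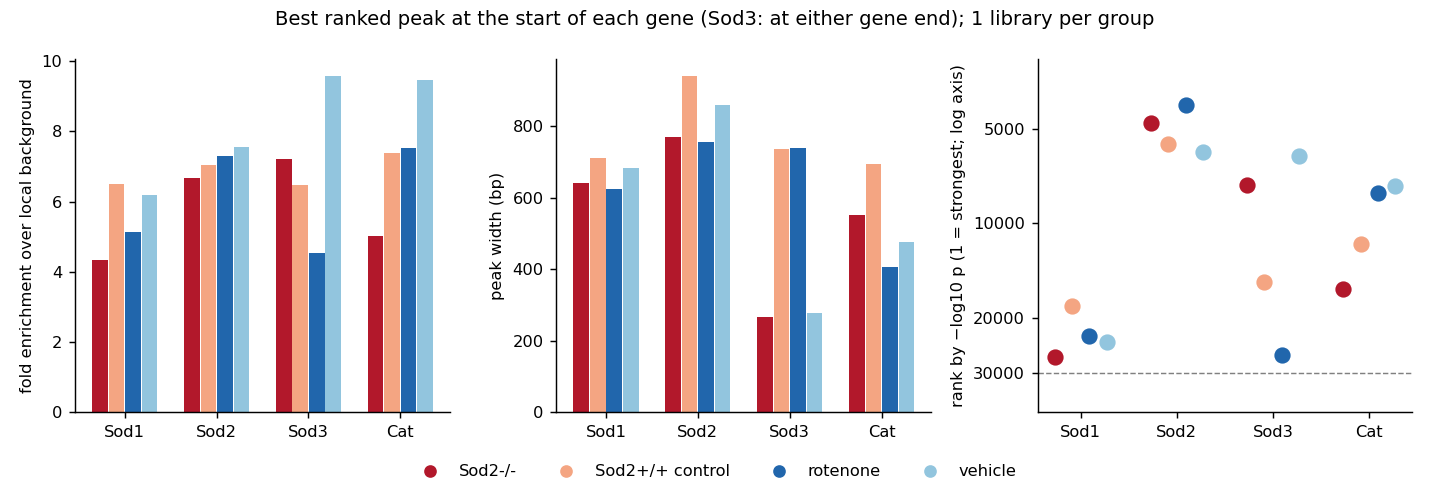
Start peak of each gene in the 4 libraries, as fold over local background, as width in bp and as rank by −log10 p on a log axis, with the strongest at the top and the dashed line at rank 30000. Sod2 sits between ranks 4202 and 5941, while Sod3 stands at 26309 under rotenone and 6103 under vehicle.

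The start peaks with the most similar ranks over the 4 libraries were sought among 13042 genes, as the smallest distance between log2 ranks. For Sod1 these were Nup205 and Mtap (distance 0.129 each), and for Sod2 Hat1 (0.186) and Adgra1 (0.196). Nup205 is a nuclear pore protein, Mtap a methionine salvage enzyme and Hat1 a histone acetyltransferase. For Cat they were Armh1 and Tmem53 (0.309 each), which share 1 start peak. Sod3 had no near match, with Nhp2 at 0.734 and Abl2 at 0.780. Of the 4 genes, Sod3 thus lay furthest from its nearest match, over only 4 values per gene.

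Within the windows 25 strong peaks lay in the knockout, 23 in control, 25 under rotenone and 26 under vehicle. Around Sod2 there were 10 in the knockout and 7 in control, and 8 under rotenone and 9 under vehicle, more than around 72.8% to 90.2% of protein-coding genes. Sod1 had 5 in the knockout and 7 in each other library, and Sod3 had 6 in the knockout, control and rotenone and 7 under vehicle. Cat had 4 in the knockout and 3 in control, and 4 under rotenone and 3 under vehicle, below or at the median of 4 per gene. Peaks of any strength numbered 246 in the knockout and 188 in control, and 167 under rotenone and 163 under vehicle. These totals follow the lengths of the lists.

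**Figure D2:**
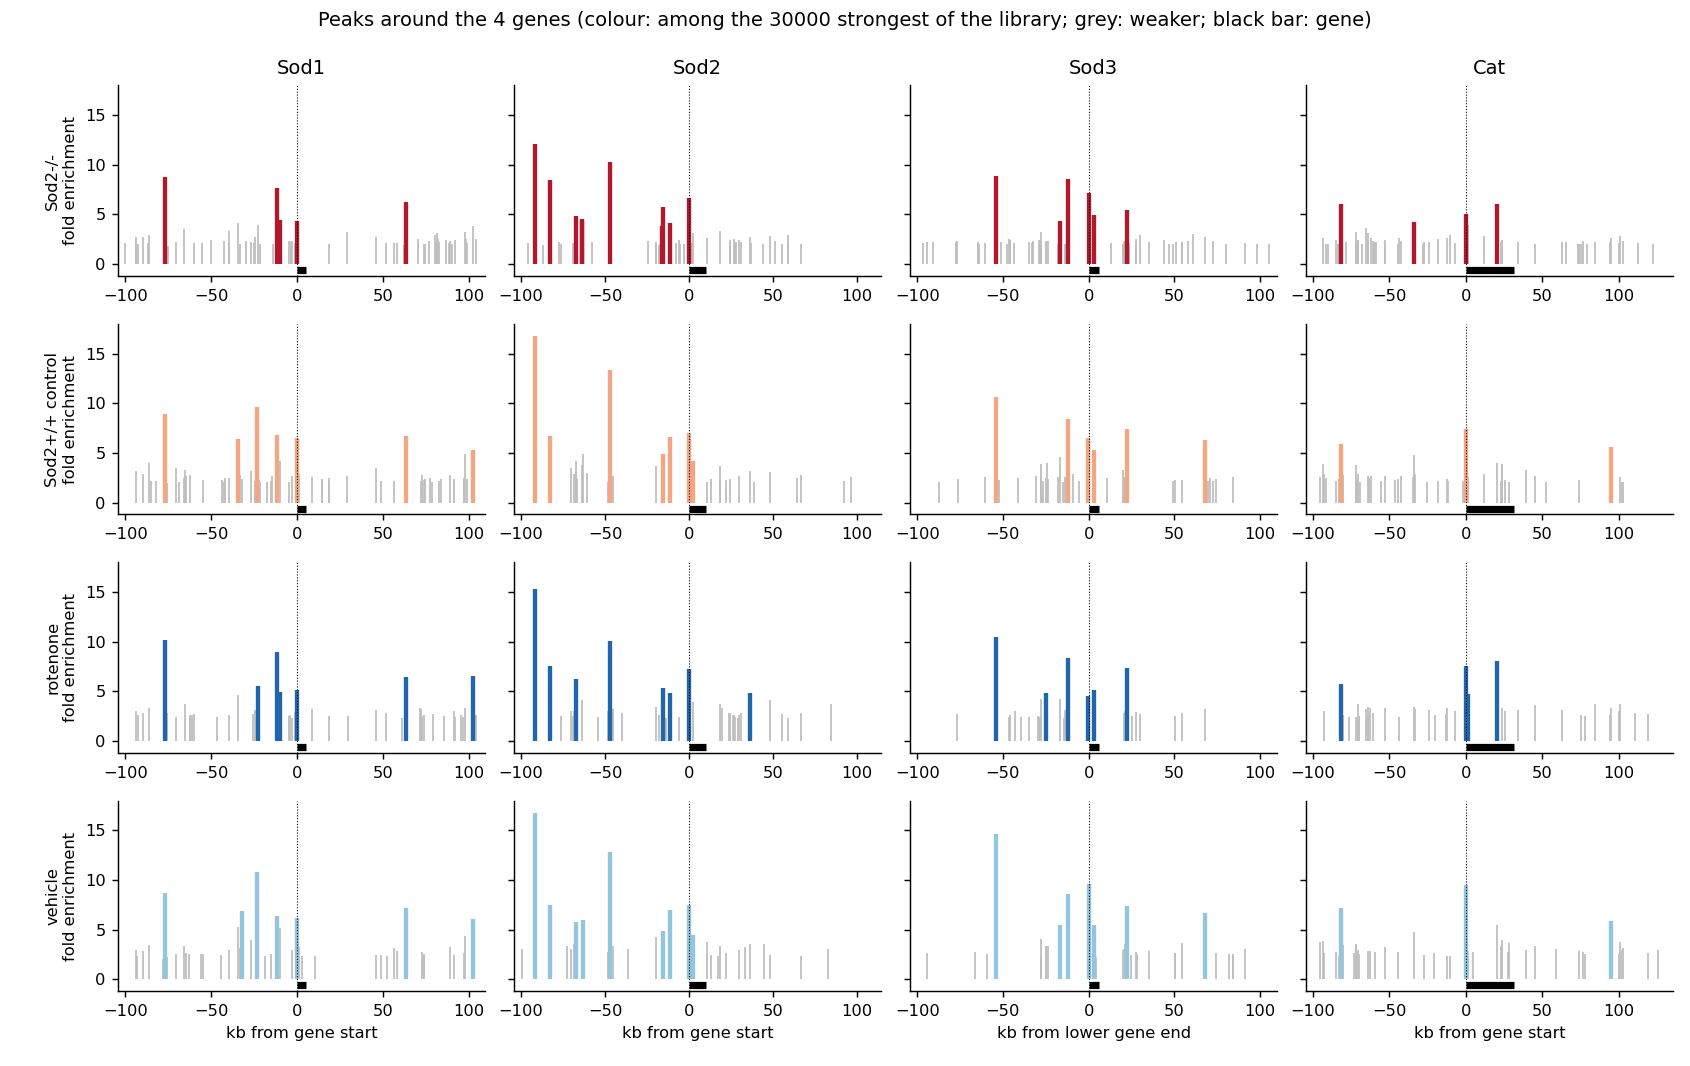
Peaks within 100000 bp of each gene by library, as fold over local background against distance from the gene start in kb (for Sod3 from the lower gene end). Coloured bars are the strong peaks, grey bars the weaker ones and the black bar the gene. The tallest bar of each library lies upstream of Sod2, with folds of 12.0 in the knockout, 16.7 in control, 15.3 under rotenone and 16.8 under vehicle.

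Strong peaks that overlapped between libraries were merged into 34 regions, 9 around Sod1, 11 around Sod2, 8 around Sod3 and 6 around Cat. Of these, 17 of 34 were strong in all 4 libraries, against 46.1% of the 42457 regions of the genome, and 7 (20.6%) in 1 library only, against 23.8%. The regions are described by the rank of their best peak, and a region is called shifted where its rank moved at least 2 times, with all lists cut to the length of the shortest. This rule was chosen after values were seen. By it 16 of 34 regions (47.1%) were shifted in no comparison, vehicle against control included, and 48.6% over the genome.

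Fold enrichment differed between the libraries over the whole genome. In the knockout 22 of 33 regions had a lower fold than in control, against a background of 75.4% of regions. Under rotenone 21 of 33 had a lower fold than under vehicle, against 71.2%, and 17 of 33 were lower in both comparisons, against 61.7%. Under vehicle 8 of 34 had a lower fold than in control, against 38.0%. Peaks were narrower in the knockout than in control in 24 of 33 regions, against 73.4%, and under rotenone than under vehicle in 23 of 33, against 71.8%. They were narrower in both comparisons in 18 of 33, against 58.7%, and narrower under vehicle than in control in 24 of 34, against 62.9%. A lower fold or narrower peak in the knockout or under rotenone is therefore the common state of regions in these libraries, and the ranks are used below to describe single sites.

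In the knockout 8 of 34 regions ranked at least 2 times nearer the top than in control, against a background of 15.2%, and 7 at least 2 times further down, against 17.2%. Under rotenone 6 ranked nearer the top than under vehicle, against 16.2%, and 5 further down, against 17.8%. Under vehicle 2 ranked nearer the top than in control, against 4.71%, and 0 further down, against 4.15%. In both the knockout and rotenone 3 ranked nearer the top, against 7.41%, and 3 further down, against 9.4%. The median log2 shift was 0.25 in the knockout, 0.08 under rotenone and 0.03 under vehicle, where positive is nearer the top, against −0.02, −0.01 and −0.02 over all regions. As shares of the 34 regions, 23.5% ranked nearer the top in the knockout and 20.6% further down, and 17.6% and 14.7% under rotenone. Under vehicle the shares were 5.88% and 0%, and in both the knockout and rotenone 8.82% in each direction. Whether the 4 genes differ from the genome in these shares was not tested. The 6 regions shifted the same way in both comparisons were a pair near Sod1, 1 near Sod3 and 3 near or in Cat.

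**Figure D3:**
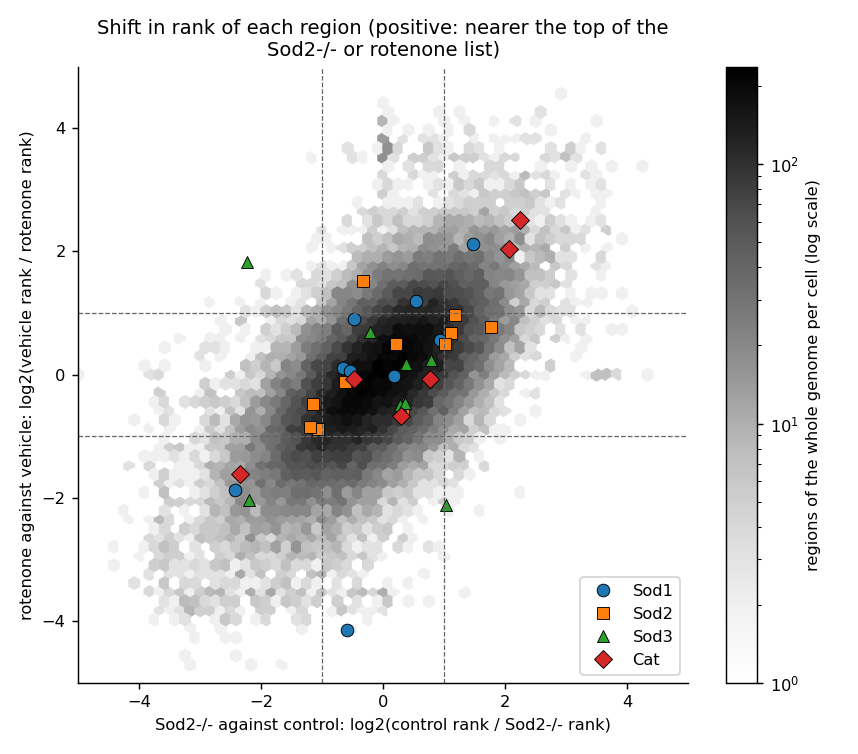
Shift in rank of each region as log2, for the knockout against control on the horizontal axis and for rotenone against vehicle on the vertical axis, with positive values nearer the top of the knockout or rotenone list. Marks are the 34 regions of the 4 genes, grey cells count all 42457 regions on a log scale, and dashed lines stand at 2 times. Of the marks, 3 lie beyond both lines at the upper right and 3 at the lower left.

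Upstream of Sod1 a pair of neighbouring sites exchanged order. The first (chromosome 16, 90197570-90198090, 22932 bp before the start, in the long non-coding gene Gm35714) had a fold of 3.92 in the knockout and 9.66 in control, and of 5.57 under rotenone and 10.8 under vehicle. It ranked 33713 in the knockout and 6274 in control, and 18885 under rotenone and 5142 under vehicle. This site stood 5.37 times further down in the knockout and 3.67 times further down under rotenone, and was strong in all but the knockout. The second (90209016-90209449, 11530 bp before the start, in no gene) had a fold of 7.67 in the knockout and 6.82 in control, and of 8.98 under rotenone and 6.39 under vehicle. It ranked 5597 in the knockout and 15619 in control, and 4611 under rotenone and 19963 under vehicle. The second site was thus the stronger of the pair in the knockout and rotenone, and the first in control and vehicle, with ranks at least 2.49 times apart in each library.

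The other regions around Sod1 did not follow that exchange. The best ranked, 76801 bp before the start inside Tiam1, an activator of the GTPase Rac, ranked 1151 in the knockout and 1672 in control, and 1019 under rotenone and 2331 under vehicle. The start of Scaf4, a gene for a factor that binds RNA polymerase II, held a peak that ranked 5526 in the knockout and 6246 in control, and 6922 under rotenone and 6825 under vehicle. A site 9850 bp before the Sod1 start was strong in the knockout and rotenone, with rank 25183 in the knockout and 48052 in control, and 24078 under rotenone and 35724 under vehicle. All 3 of these sites held a peak in each library, and only the Tiam1 site was shifted, nearer the top under rotenone. A site 34421 bp before the start lay near the limit of the strong list, with rank 30194 in the knockout and 19227 in control, and 30847 under rotenone and 33212 under vehicle. A narrow peak of 74 bp, 31982 bp before the start, ranked 19174 under vehicle and 225054 in control, and overlapped no peak in the knockout or under rotenone. It is the 1 region of the windows with no peak in some library, and it separated vehicle from control as well.

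Around Sod2, 3 of the 11 regions lay at the starts of other genes. The strongest, at the starts of Mrpl18, for a mitochondrial ribosomal protein, and Tcp1, for a chaperonin subunit, ranked 659 in the knockout and 297 in control, and 379 under rotenone and 273 under vehicle. The start of Acat2, for a cytosolic thiolase, ranked 2354 in the knockout and 1125 in control, and 3969 under rotenone and 2149 under vehicle. Both stood more than 2 times further down in the knockout, while remaining among the best ranked peaks of each library. The start of Wtap, for a subunit of the RNA methyltransferase complex, ranked 9735 in the knockout and 19563 in control, and 16768 under rotenone and 23595 under vehicle. It was called as 3 peaks in the knockout and under rotenone, and as 1 peak in control and under vehicle. The best peak was 586 bp wide in the knockout and 1266 bp in control, and 536 bp under rotenone and 1264 bp under vehicle. The split of this site is thus shared by the knockout and rotenone.

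Nearer to Sod2, a site 11297 bp before its start (chromosome 17, 12996462-12996623) had a fold of 4.10 in the knockout and 6.64 in control, and of 4.84 under rotenone and 6.96 under vehicle. It ranked 26504 in the knockout and 11566 in control, and 23747 under rotenone and 13203 under vehicle. This was the only region between the starts of Wtap and Sod2, and it was strong in all 4 libraries. The site inside Sod2, 2256 bp after the start, ranked 43483 in the knockout and 28094 in control, and 30683 under rotenone and 28371 under vehicle. A narrow site of 76 bp, 36251 bp after the Sod2 start, was strong under rotenone only, with rank 107559 in the knockout and 85582 in control, and 27096 under rotenone and 78038 under vehicle. None of the 3 ranked nearer the top in the knockout than in control.

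Further upstream, a site inside Acat3, 82652 bp before the Sod2 start, ranked 5301 in the knockout and 18122 in control, and 9283 under rotenone and 15864 under vehicle. A site in the pseudogene Gm20591, 150 bp from Acat3, ranked 20581 in the knockout and 46687 in control, and 13791 under rotenone and 26869 under vehicle. These sites stood 3.42 and 2.27 times nearer the top in the knockout. A pair of narrow sites inside Acat2 lay near the limit of the strong list, at 12944197-12944266 and 12944347-12944482. The first ranked 26930 in the knockout and 58103 in control, and the second 28225 in the knockout and 35211 in control. A single weaker peak, of rank 39569, covered both under rotenone, against ranks of 63319 and 26183 under vehicle.

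Around Sod3, a site inside Ccdc149, 61758 bp from Sod3 (chromosome 5, 52431276-52431717), was strong in control and vehicle only. Its fold was 2.75 in the knockout and 6.33 in control, and 3.21 under rotenone and 6.69 under vehicle. It ranked 98833 in the knockout and 21452 in control, and 85537 under rotenone and 20889 under vehicle. The peak was 227 bp wide in the knockout and 442 bp in control, and 247 bp under rotenone and 402 bp under vehicle. Position, width and rank were thus close between control and vehicle, and the site was weak in both the knockout and rotenone.

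A narrow site 24612 bp from the lower end of Sod3 (52339143-52339242) behaved differently in the 2 comparisons. It ranked 241606 in the knockout and 51157 in control, and 27398 under rotenone and 97332 under vehicle. It was strong under rotenone only. The 5 remaining regions around Sod3 stayed within 2 times in each comparison. The best ranked, at a distance of 53911 bp, had a fold of 8.90 in the knockout and 10.7 in control, and of 10.4 under rotenone and 14.7 under vehicle. A site 12050 bp from the gene had nearly equal folds, 8.55 in the knockout and 8.45 in control, and 8.37 under rotenone and 8.55 under vehicle. The site inside Sod3 (52366724-52367036) had folds of 4.99 in the knockout and 5.33 in control, and 5.11 under rotenone and 5.43 under vehicle. At 16613 bp from the gene a site ranked 23625 in the knockout and 30323 in control, and 30666 under rotenone and 22198 under vehicle. A second site in Ccdc149, 16467 bp from Sod3, ranked 16816 in the knockout and 14510 in control, and 9639 under rotenone and 15639 under vehicle.

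Cat held the clearest contrast within 1 gene. A site in the gene body, 20390 bp after the start (chromosome 2, 103464585-103464941), had a fold of 6.06 in the knockout and 4.01 in control, and of 8.05 under rotenone and 5.50 under vehicle. It ranked 12444 in the knockout and 52173 in control, and 7424 under rotenone and 30560 under vehicle. This site was strong in the knockout and rotenone only, and stood 4.19 times nearer the top in the knockout and 4.12 times under rotenone. It outranked the Cat start peak in those libraries, narrowly under rotenone, and stood below it in control and vehicle. A second site in the gene, 1399 bp after the start (103483707-103483801), had a fold of 3.90 in the knockout and 2.53 in control, and of 4.77 under rotenone and 2.87 under vehicle. It ranked 36324 in the knockout and 171704 in control, and 27009 under rotenone and 154657 under vehicle. The Cat start peak did not share this pattern, and exons and introns were not told apart here.

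Beyond the 3′ side of Cat, 63381 bp from the gene, a broad site in no gene (103390076-103390971, nearest gene Elf5, for an epithelial transcription factor) showed the opposite. Its fold was 2.61 in the knockout and 5.62 in control, and 3.30 under rotenone and 5.91 under vehicle. It ranked 125478 in the knockout and 24582 in control, and 76875 under rotenone and 25020 under vehicle. The best peak was 475 bp wide in the knockout and 896 bp in control, and 431 bp under rotenone and 856 bp under vehicle, where the site was whole. This site and the one 1399 bp after the Cat start exchanged order, with ranks at least 2.85 times apart in each library. A site 33890 bp before the Cat start ranked 29571 in the knockout and 36322 in control, and 64938 under rotenone and 40703 under vehicle. The start of Abtb2, 81393 bp from Cat, ranked 11319 in the knockout and 19369 in control, and 15426 under rotenone and 14753 under vehicle.

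**Figure D4:**
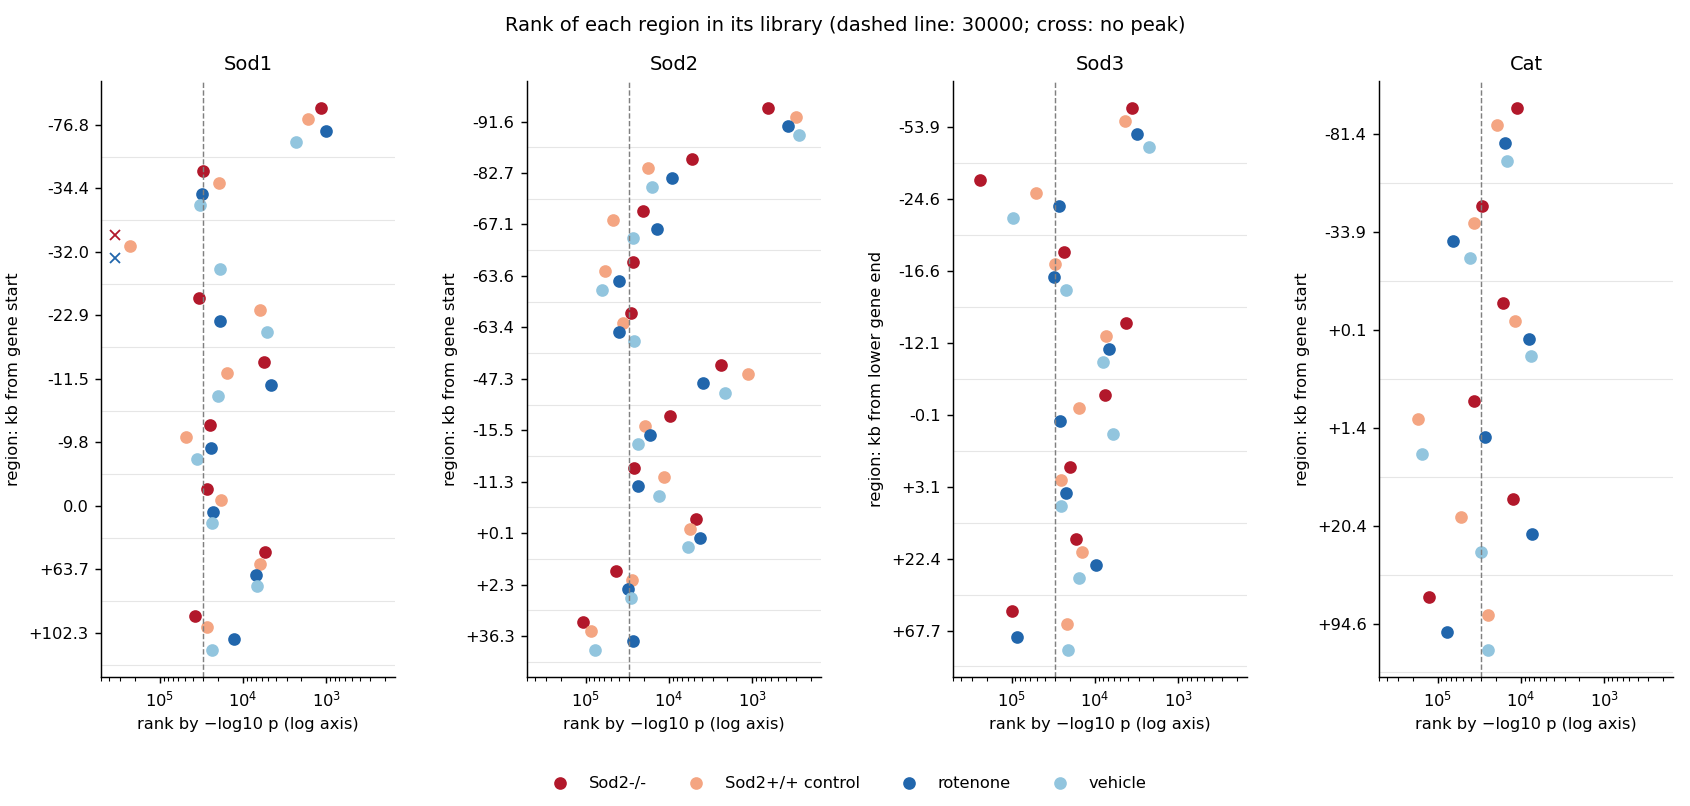
Rank of the best peak of each of the 34 regions in its library on a log axis, with the strongest to the right, by distance from the gene start in kb (for Sod3 from the lower gene end). The dashed line is rank 30000 and a cross means that no peak overlapped. In the Cat panel the site 20390 bp after the start lies at 12444 in the knockout and 7424 under rotenone, against 52173 in control and 30560 under vehicle.

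Order within a window was also counted over pairs of regions, since it does not depend on the length of a list. Of 134 pairs in the 4 windows, 12 stood in 1 order in both the knockout and rotenone and in the other order in both control and vehicle, against a background of 10.5% of 627852 pairs around protein-coding genes. These were 2 of 36 pairs around Sod1, 4 of 55 around Sod2, 2 of 28 around Sod3 and 4 of 15 around Cat. The total of 12 (8.96%) lay near the background. This count was also chosen after values were seen, and pairs of 1 window share regions. In the background a pair near several genes was counted for each of them, so its pairs are not all distinct.

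Under a stricter rule a strong peak was gained, or lost, where it overlapped none of the 60000 best ranked peaks of the other library. The knockout gained 0 of its 25 strong peaks, against a background of 5.33%, and lost 2 of the 23 of control, against 6.76%. The lost peaks were the broad site beyond Cat and the site in Ccdc149 near Sod3. Rotenone gained 3 of its 25, against 6.81%, namely the sites 36251 bp after the Sod2 start, 1399 bp after the Cat start and 24612 bp from Sod3. It lost 3 of the 26 of vehicle, against 8.04%, namely the same sites beyond Cat and in Ccdc149 and the narrow peak before Sod1. Vehicle gained 1 of its 26 against control, the narrow peak before Sod1, against 1.03%, and lost 0 of the 23 of control, against 0.847%. The start peaks of the 4 genes were strong and overlapped in all 4 libraries, so by this rule none could be gained or lost. These counts of 0 to 3 peaks are too small to tell their shares from the background. Apart from the narrow peak before Sod1, which had no rotenone peak, each gained or lost site still held a weaker peak in the other library.

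The limit of 100000 bp left out sites just beyond it. The region furthest inside it, 96771 bp from Sod1, ranked 37717 in the knockout and 27028 in control, and 12723 under rotenone and 23853 under vehicle. The first one outside, 101479 bp from Cat, ranked 16845 in the knockout and 6034 in control, and 15082 under rotenone and 5828 under vehicle.

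Related genes were 22, all of which matched: the copper chaperone of SOD1 (Ccs), peroxiredoxins and glutathione peroxidases, which remove peroxides, the peroxisomal import receptor of catalase (Pex5), sources of superoxide and hydrogen peroxide (Nox1, Nox4, Cyba, Cybb, Duox1, Duox2, Xdh), and Aco1, for the cytosolic aconitase, an enzyme with an iron-sulphur cluster of a kind that superoxide attacks. Around them the knockout gained 5 of 132 strong peaks (3.79%), against a background of 5.33%, and lost 8 of the 122 of control (6.56%), against 6.76%. Rotenone gained 13 of 138 (9.42%), against 6.81%, and lost 1 of the 120 of vehicle (0.833%), against 8.04%. With a strong list of 60000, set against the 120000 best ranked peaks of the other library, rotenone gained 25 and lost 32 around these genes. The balance of 13 to 1 was thus not kept when both limits were raised. The share over all strong peaks is not given for that setting, so these counts cannot be set against a background. Vehicle gained 1 of 120 against control (0.833%), near Prdx1, against 1.03%, and lost 3 of the 122 of control (2.46%), against 0.847%. Duox1 and Duox2 share part of their windows. The knockout gains lay around Prdx3 (3), Prdx2 and the Duox pair, and the losses around Aco1 (2), Prdx5, Gpx3, Pex5, Nox4, Nox1 and Xdh. The sites lost around Prdx5 and Gpx3 and 1 of those around Aco1 were also lost in vehicle against control. The rotenone gains lay around Cyba (3), Cybb (2), Gpx8 (2, 1 of them 235 bp from the gene), Prdx1, Prdx2, Prdx3, Prdx5, Gpx3 and Duox1, and the loss near the Duox pair.

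A strong start peak was present in 9 of the 22 in the knockout, against 37.3% of all protein-coding genes, in 11 in control, against 37.3%, in 12 under rotenone, against 38.1%, and in 9 under vehicle, against 37.2%. Of the 22 related genes, 14 had a strong start peak in at least 1 library, and their shifts of at least 2 times in rank were counted, set against all 9635 such genes. In the knockout 2 stood nearer the top than in control, against a background of 11.9%, and 2 further down, against 10.1%. Under rotenone 1 stood nearer the top than under vehicle, against 13.4%, and 1 further down, against 9.2%. Under vehicle 0 stood nearer the top than in control, against 3.63%, and 1, Gpx8, further down, against 2.7%. These counts of 0 to 2 genes are too small to tell from the background, and the genes described next were chosen by their shift.

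The start of Ccs, whose product loads copper onto SOD1, ranked 3383 in the knockout and 12791 in control, and 4137 under rotenone and 9469 under vehicle. It was the 1 related gene whose start stood at least 2 times nearer the top in both comparisons. The start of Pex5, which carries catalase into peroxisomes, ranked 943 in the knockout and 9135 in control, and 4565 under rotenone and 8120 under vehicle, a shift past 2 times in the knockout only. The starts that stood further down in the knockout were those of Prdx3, for the mitochondrial peroxiredoxin, and Nox4, for an oxidase that forms hydrogen peroxide. Prdx3 ranked 11428 in the knockout and 4187 in control, and 7595 under rotenone and 4673 under vehicle. Nox4 ranked 50389 in the knockout and 16290 in control, and 38606 under rotenone and 21347 under vehicle. Neither reached 2 times under rotenone, where Prdx1, for a cytosolic peroxiredoxin, did, with rank 36859 in the knockout and 23089 in control, and 39603 under rotenone and 19484 under vehicle.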

How the data were processed

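Per the labels' protocols, nuclei of dermal fibroblasts were tagmented with Tn5 and sequenced as paired ends. MACS2, Bowtie2, HOMER and bedtools were used with build mm10, per the submitters' processing notes. Their versions and settings, and whether reads were filtered or shifted for the Tn5 cut, are not stated in what was used here. The authors deposited a separate peak list for each library, with a score (not used), a fold enrichment, a −log10 p and a −log10 q per peak. The deposited fold is a ratio over local background, with columns read as in MACS2's broad format. The deposited −log10 q starts just above 1, so weak peaks down to a q of 0.1 are included. All of these are values of single peaks and were compared as ranks or side by side. Read counts were not used, so the depth per library and its precision are unknown.

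Starts were converted to 1-based mm10 positions. Peaks were ranked by −log10 p, ties by fold, and the 30000 best were called strong. Start peaks lie within 1000 bp of a RefSeq gene start, or of either gene end where none is given; exons, introns and UTRs were not told apart. Region ranks were cut to 340240, the length of the shortest list, which also stands for no peak. The 4 genes, the related genes, the markers and the rules were chosen with earlier results of these data known, and the shift, fold, width and pair counts after values were seen, those of start peaks included. Named are the 4 genes, genes at or nearest to their strong peaks, related genes with a gained or lost region, and the 2 genes with the most similar start ranks, leaving out uncharacterised ones. Markers and Ccs are named besides, and 1 gene of the related list is not reported here. As a check of the overlap code, the partner peaks of 200 shared strong peaks were removed in each pair of lists and direction. All 200 were then called unshared, which the removal fixes in advance for working code. For 300 strong peaks per pair and direction, the overlap calls matched a direct peak-by-peak search in all 300. Alternatives were other list lengths, ranking by fold, coverage of 50% of a peak, any partner peak, windows of 50000 bp, a start window of 2500 bp, other shift sizes and ranks as a share of the list. Python 3.11.15, numpy 2.4.6, pandas 2.3.3 and matplotlib 3.10.9 were used.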

Additional observations from a re-analysis of the deposited data

How the results depend on the processing

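No paired analysis was possible because each group has 1 library. Of the alternatives run, 69 results stayed near the value given and 53 counts moved, and many are small counts that 1 peak can move. The start peak ranks were tried only with a start window of 2500 bp, which left each rank unchanged. That setting does not show how they depend on the ranking or the length of the list. With a strong list of 15000, strong peaks in the windows numbered 13 in the knockout, 11 in control, 14 under rotenone and 12 under vehicle; with 60000 they were 44 in the knockout, 38 in control and 39 under rotenone; in windows of 50000 bp they were 16 in the knockout, 14 in control and 15 under vehicle. For gained and lost peaks the partner limit moved with the list, to 30000 for a list of 15000 and to 120000 for 60000. No share over all strong peaks is given for the alternatives of gained and lost peaks. The shares printed above hold for the main rule only and are no background for the counts that follow. With 15000 the knockout gained 1 and lost 1, rotenone gained 1 and lost 0, and vehicle against control gained 0. With 60000 the knockout gained 6 and lost 5, and rotenone gained 5 and lost 1. Where any partner peak counted as shared, the knockout lost 0, rotenone gained 0 and lost 1, and vehicle gained 0; in windows of 50000 bp the knockout lost 0 and rotenone lost 1. Around the related genes, with 60000 the knockout gained 15 and lost 30, rotenone gained 25 and lost 32, and vehicle gained 4 and lost 8; in windows of 50000 bp the knockout gained 3 and lost 5, rotenone gained 6 and vehicle gained 0. The surplus of rotenone gains over losses there was thus not kept with a list of 60000 and a partner limit of 120000. Without a share over all strong peaks, the 25 and 32 are not read further. The counts of shifts were all added after seeing the data. For a shift of 3 times and for ranks as a share of the list, the share over the genome in the same setting is printed. The other settings are given as counts only and are not set against the genome. A shift of 3 times left 3 of 34 knockout regions nearer the top, against 5.86%, and 4 further down, against 7.65%. It left 1 vehicle region nearer, against 1.06%. A shift of 1.5 times gave 11 rotenone regions nearer and 9 further, 6 vehicle regions nearer and 3 further, and 6 in each direction in both comparisons. Regions from the 15000 best numbered 19, in place of 34, and formed 40 pairs. Of these 19 regions, 4 were further in the knockout, 3 nearer and 2 further under rotenone, 1 nearer under vehicle, and 1 further in both comparisons. Of the 40 pairs, 5 were reordered. These counts have a smaller base than the main counts, so their lower values alone show no drop. Ranks as a share of the list gave 4 of 34 knockout regions further, against 9.54%. They gave 1 vehicle region nearer, against 1.98%, and 3 further, against 11.7%. Longer lists and wider limits hold more peaks by construction; the cause was otherwise not tested. Depth is unknown, so no limit of detection can be given for a weak or missing peak.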
